A study of Mus musculus with 18 samples.

Results

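H3K9me3 at gene promoters was examined in wild-type (WT) mouse embryonic fibroblasts (MEF). A peak was taken when it lay on an autosome and within 1 kb of an annotated transcript start of a protein-coding gene in mm9. The WT list held 14425 peaks, 14273 of them on autosomes, and 729 met this rule, or 5.11% (95% confidence interval 4.75% to 5.48%). They lay at 592 of the 21418 autosomal protein-coding genes of the annotation, or 2.76%, which is the share against which gene groups are read below. Intervals are exact Clopper-Pearson intervals and cover counting error only.

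The study asked how clusters of KRAB zinc finger protein (KZFP) genes and related units evolve and are controlled by KAP1. H3K9me3 and H3K27ac were profiled by ChIP-seq in C57BL/6 embryonic fibroblasts, either WT with both Kap1 alleles flanked by loxP sites or Kap1 KO. KAP1 and SETDB1 were profiled in Hepa 1.6, a WT hepatoma line from a C57L mouse. Each mark in each genotype or line was represented by 1 peak list, so the spread between libraries could not be measured, and the read depth is unknown. For RNA-seq, the Kap1 KO MEF were 1 clone after long culture, and the WT MEF were the same line without excision; whether the ChIP-seq cells had the same history is not given in the sources used here. The KAP1 list used here came from another cell type than the histone marks, so a KAP1 peak below refers to Hepa 1.6 only; KAP1 in MEF was not analysed here.

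KAP1, also called TRIM28, is a corepressor that is brought to DNA by KRAB zinc finger proteins and recruits the methyltransferase SETDB1, which trimethylates histone H3 on lysine 9. The resulting H3K9me3 is best known at transposable elements, at imprinted control regions and over the 3' exons of zinc finger genes. Promoters of active genes instead carry H3K27ac, an acetylation laid down by CBP and p300.

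The fibroblast identity of the MEF was checked with H3K27ac at transcript starts. Of 20 fibroblast markers, 18 had a WT peak and 17 a Kap1 KO peak, among them Col1a1, Col3a1, Vim and Twist1, whereas Lum and Postn had none in WT. Of 10 hepatocyte markers, 0 had a peak in WT and 1 in Kap1 KO cells. Of the other lists, 1 of 6 epithelial, 0 of 5 blood, 2 of 5 endothelial, 0 of 6 pluripotent and 0 of 5 neural markers had a WT peak. In Kap1 KO cells these counts were 0, 1, 2, 2 and 0 in the same order. Among the 592 genes were 0 of 20 fibroblast, 1 of 6 epithelial and 1 of 5 neural markers. The 2 marked ones were the cadherin gene Cdh1 and the neural and stem cell factor gene Sox2. No hepatocyte, blood, endothelial or pluripotent marker was among them. Over all genes the share was 2.76%, and lists this short do not separate the cell types by H3K9me3.

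Peaks at promoters scored higher than the other autosomal WT peaks. The score is the value the authors deposited with each peak and was used for ranking within a list. Where scores of both genotypes are given side by side below, they come from separate libraries of unknown depth, and a difference between them is a description only. The exact value 3100 recurred at many H3K27ac and KAP1 peaks, so equal scores of 3100 neither rank peaks nor show equal signal. The median H3K9me3 score was 95.2 at promoters, with quartiles of 63.81 and 167.34, against 79.6 for the 13544 peaks elsewhere. A score of at least 200 was reached by 147 promoter peaks, or 20.2% (17.3% to 23.3%), and by 10.5% (10% to 11%) of the others. Promoter peaks were also wider, with a median of 579 bp against 496 bp, and ranged from 273 to 8192 bp.

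The transcript start itself was covered by 290 of the 729 peaks, or 39.8% (36.2% to 43.4%). Another 181 lay upstream of the closest start and 258 downstream of it. Covering peaks had a median score of 130, compared with 84.4 for upstream and 83.4 for downstream peaks. Covering peaks were also wider, with a median of 716 bp against 516 bp upstream and 494 bp downstream. An exon of the closest gene was touched by 470 peaks, 127 lay in its introns alone and 132 outside it. At the 1 kb limit, the last peaks inside lay 998 bp from starts of Ntn1, with a score of 376, and of Cyp1b1, with a score of 195. The first peaks outside lay 1001 bp from a start of Gm17316, with a score of 55.9, and 1003 bp from a start of the homeobox gene Barx1, with a score of 55.3.

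A single peak was found at 456 genes and 2 or more at 136, with at most 5 at the same gene. The annotation often gives several starts to a gene, and 450 of the 592 genes were marked at their most upstream start. The other 142 genes, or 24% (20.6% to 27.6%), were marked only at a start inside the gene.

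The genes were spread unevenly over chromosomes. On chromosome 8, 73 of 1082 genes were marked, or 6.75%, followed by chromosome 10 with 5.45%, chromosome 19 with 5.11% and chromosome 11 with 4.48%. The lowest shares were 0.445% on chromosome 16, 0.579% on chromosome 7 and 0.58% on chromosome 18. The whole WT list was uneven in the same direction at both ends, since chromosome 8 held 14.3% of all autosomal peaks and 11.7% of those at promoters, and chromosome 16 held 1.02% and 0.686%.

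The 10 peaks with the highest scores belonged to 9 gene symbols. The first scored 3222 and covered 8131 bp of chromosome 10, between 79196868 and 79204998, at starts inside Polrmt, the gene of the mitochondrial RNA polymerase. Ahnak2, which encodes a very large scaffold protein, had 3 of the 10, with scores of 3100, 2163 and 1933, the first of them between 114013995 and 114017586 on chromosome 12. Zfp316, a zinc finger gene, scored 3087 for a peak between 144012997 and 144019796 on chromosome 5. At all 3 genes the WT H3K27ac peak lay at another start than the H3K9me3. Muc19, a gel-forming mucin gene, followed with 1891 for a peak on chromosome 15 between 91736877 and 91740882.

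Developmental regulators were among the remaining peaks of the 10. Isyna1, the gene of inositol-3-phosphate synthase, had a score of 1597 for a peak that began 25 bp downstream of its only start and had no H3K27ac peak in either genotype. The homeobox genes Lhx1, needed for head and kidney formation, and Hoxa13, needed for digits and the genital tubercle, had scores of 1492 and 1385. A peak of 7600 bp on chromosome 10 with a score of 1037 covered starts of Dux, an activator of the early embryonic genome, and of 4933403O03Rik.

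Many imprinted genes were marked. Of 48 autosomal genes on the imprinted list, 13 were members, or 27.1% beside 2.76% of all genes, and 10 of the 13 had a start under the peak. Their 19 peaks had a median score of 160. Neighbouring Nnat, a brain proteolipid gene, and Blcap shared 3 peaks, of which the highest scored 864 and lay between 157382687 and 157385347 on chromosome 2. Herc3, a ubiquitin ligase gene, scored 509.6, and Nap1l5, which lies in its intron, scored 193. Mest, a hydrolase gene expressed from the paternal allele, scored 474 for a peak between 30686797 and 30688491 on chromosome 6, and the retrogene Mcts2 scored 388.5. Dio3, whose enzyme inactivates thyroid hormone, scored 240.2, the growth factor receptor adaptor gene Grb10 186, the potassium channel gene Kcnk9 160.3 and the zinc finger gene Plagl1 131. The lowest scores were 91.8 at Inpp5f, a phosphatase gene, 81 at the amino acid transporter gene Slc38a4 and 53.5 at Gnas, which encodes a G protein subunit.

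At 3 imprinted genes, H3K27ac was listed in both genotypes within 1 kb of a start with H3K9me3. At Grb10 the H3K27ac, with a score of 3100 in each genotype, overlapped H3K9me3 peaks of 56.5 and 51.9 near the most upstream start, while the peaks of 186 and 128 at a start inside the gene overlapped none. For WT and then Kap1 KO cells, the scores were 1141 and 772 at Mcts2 and 316 and 523 at Plagl1. Slc38a4 had H3K27ac at its marked start with a score of 2626 in WT only. The lists do not separate alleles, so whether both marks were on the same chromosome copy was not tested.

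Developmental transcription factor genes were frequent. These lists were drawn up after the values had been seen, other than Hox, and serve as a description. Of 183 homeobox genes, 41 were marked, or 22.4%, and 14 of 77 forkhead, Sox, T-box and GATA genes, or 18.2%. The Hox genes, which set position along the body axis, contributed 9 of 40, or 22.5%: Hoxa9, Hoxa10, Hoxa13, Hoxc11, Hoxc12, Hoxc13, Hoxd10, Hoxd11 and Hoxd13. All 9 belong to the posterior groups. Scores outside the highest peaks, at genes named after their values were seen, reached 662 at Hoxc13, 507 at Hoxa10, 489 at Gbx1, 409 at Tlx1, 408 at Pax5, the B cell factor gene, and 371 at Lbx1, a muscle precursor factor gene. Among forkhead genes, the ovarian factor gene Foxl2 had a score of 731 and Foxq1 a score of 508. WT H3K27ac lay at any start of 12 of the 41 marked homeobox genes and at the marked start of 9, while it lay at any start of 95 of all 183.

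Of 72 genes on the germline list, 3 were marked, or 4.17% (0.868% to 11.7%), an interval that holds the 2.76% of all genes. All 3 had a peak over the start. Gtsf1, a factor of the piRNA pathway, scored 150.2 for a peak between 103260733 and 103261674 on chromosome 15, Tex15, a meiotic and piRNA pathway gene, 116, and Dazl, which encodes a germ cell RNA-binding protein, 66.2. H3K27ac was absent from the lists at all 3 in WT and was listed at Gtsf1 in Kap1 KO cells with a score of 741. KAP1 peaks overlapped 0 of the 3 peaks.

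Zinc finger genes by symbol gave 20 members of 392, or 5.1%, and 6 of the 20 had a start under the peak. Besides Zfp316, the next scores, picked after they were seen, were 881 at Zfp930, 494 at Zfp867 and 332.5 at Zfp2. WT H3K27ac lay at any start of 13 of the 20, and of 306 of all 392, but at the marked start of 1 of the 20, Zfp423. Of the 339 genes that carry a KZFP or related unit of the study in an exon, 35 were marked at a start, or 10.3% (7.3% to 14.1%), and 85 within 1 kb of a transcript's 3' end, or 25.1% (20.5% to 30%). For all genes the share at the 3' end was 2.45%. Of the 35 genes, 27 had a peak at both places, and in 18 of them a single peak was near both a start and a 3' end. Only 23 of the 35 were marked at the most upstream start.

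Predicted genes (symbols beginning with Gm and a number) gave 71 of 1858, or 3.82%, and genes named after RIKEN clones 36 of 1377, or 2.61%. Cytochrome P450 genes gave 3 of 98, olfactory receptor genes 6 of 1106, or 0.542%, and replication-dependent histone genes 1 of 67. No vomeronasal receptor gene of 327 and no clustered protocadherin gene of 24 was marked. Genes of none of these lists numbered 382.

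In Kap1 KO MEF, 43 of the 729 peaks overlapped an H3K9me3 peak by at least 1 bp, or 5.9% (4.3% to 7.86%). Over all autosomal WT peaks the share was 3.13%, and away from promoters 2.98% (2.7% to 3.28%). Peaks over a start were kept in 9.66% (6.51% to 13.7%), upstream peaks in 3.31% (1.23% to 7.08%) and downstream peaks in 3.49% (1.61% to 6.52%). Peaks over a start were also the wider ones, and the part of width in these shares was not tested. Kept peaks had a median WT score of 130 and a median Kap1 KO score of 114, and 24 of the 43 overlapped a Kap1 KO peak with a higher score. Neighbouring WT peaks could share a Kap1 KO peak. The highest Kap1 KO peaks over the 43 were 39 different ones, and 20 of these scored above every promoter peak they were matched to. When only scores of at least 80 were used in both lists, 17 of 448 were kept, or 3.79% (2.23% to 6.01%), beside 2.52% (2.15% to 2.92%) of the 6717 such peaks away from promoters, so that the intervals overlapped at this cutoff.

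The kept peak with the highest score was that of Muc19, which scored 1891 in WT cells and 2249.9 after loss of Kap1. It was followed by the peak of Dux and 4933403O03Rik, with 1037 and 1303, and by its neighbour at 4933403O03Rik and Gm10807, with 647 and 974. The predicted gene Gm6996 on chromosome 10 had 499 and 593. At these 4 peaks the Kap1 KO score was the higher.

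The other 6 of the 10 highest kept peaks scored lower in Kap1 KO than in WT cells. Fcgr3, an Fc receptor gene of myeloid cells, had 563 in WT and 50.1 in Kap1 KO cells, the latter close to the lowest score of the list, and Herc3 had 509.6 and 78.2. AY761185 had 508 and 117, and Phyhipl 489 and 58. A peak shared by C2cd4b and M5C1000I18Rik had 365 and 55.3, and Sall1, a zinc finger gene of kidney and limb development, had 342 and 59.6.

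Kept peaks lay on 12 of the 19 autosomes. Chromosome 8 held 15 of the 43, and 7 of these lay between 57977127 and 57992671, at 5 predicted genes. All 7 promoter peaks of that interval were kept, under 5 different Kap1 KO peaks, each with a higher score than the WT peaks it overlapped. The interval is bounded by kept peaks, so the share kept inside it is a description only. Predicted genes had 13 of 87 peaks kept, or 14.9% (8.2% to 24.2%), and the other genes 30 of 642, or 4.67% (3.17% to 6.6%). The interval on chromosome 8 held 7 of these 13, so the share of predicted genes rests largely on a single locus. The share without that interval was not computed. The distal end of chromosome 10, from 110 Mb, held 8 promoter peaks, of which 2 were kept. Over the whole Kap1 KO list, 185 of 4241 autosomal peaks were at promoters, or 4.36% (3.77% to 5.02%). They marked 157 genes, or 0.733% of all, of which 46 were marked in WT and 111 were not.

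H3K27ac was listed within 1 kb of any start of 164 of the 592 genes in WT, or 27.7% (24.1% to 31.5%), where 55.2% of all genes had it. In Kap1 KO cells it was listed at 163, or 27.5% (24% to 31.3%), beside 53.9% of all genes. Neither genotype had a peak at 406 genes and both had one at 141. At the gene level, therefore, the count of acetylated promoters was nearly equal in both genotypes.

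Many of these acetylated starts were not the ones with H3K9me3. At the marked starts alone, 82 genes had WT H3K27ac, or 13.9% (11.2% to 16.9%), and 74 had it in Kap1 KO cells, or 12.5% (9.94% to 15.4%). Of the 142 genes marked only inside the gene, 80 had WT H3K27ac at some start, or 56.3% (47.8% to 64.6%), but 18 at a marked one. Of the 450 genes marked at the most upstream start, 63 had WT H3K27ac there, or 14% (10.9% to 17.6%), whereas 52.6% of all genes had it at that start. Counted over peaks, 53 of the 729 overlapped a WT H3K27ac peak, or 7.27% (5.49% to 9.4%), where 1.4% of all autosomal WT H3K9me3 peaks did. A Kap1 KO H3K27ac peak overlapped 49, or 6.72% (5.01% to 8.79%), beside 4.83%. Both lists overlapped 31 of them.

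H3K27ac in Kap1 KO cells only was found at 22 genes. This is 5.14% (3.25% to 7.68%) of the 428 genes without a WT peak, beside 2.94% of all such genes in the annotation. The reverse, H3K27ac in WT only, was found at 23 of 164 genes, or 14% (9.1% to 20.3%), beside 4.85%. With a single library of each genotype, neither count has a replicate check. When the 50% of H3K27ac peaks with the highest scores were used, the count for Kap1 KO only was 10 of 466 genes, or 2.15% (1.03% to 3.91%), beside 1.78% of all such genes, a share inside that interval.

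Of the 22 genes, Hoxa13 had the highest H3K9me3 score, and its Kap1 KO H3K27ac score of 66.2 was near the lower end of the list. Fcgr3 was similar, with 67.4. Higher acetylation scores were found at Elfn1, a synaptic adhesion gene, with 3011 at the marked start, and at Gtsf1, with 741. Irx1, Golga7b and Rfx4 were outside the 10 genes named by H3K9me3 score and were picked after their values were seen. Irx1 had 2657 at its marked start, and Golga7b and Rfx4 had 1415 and 781 at another start. Ppp4r4, a phosphatase subunit gene, had 244, the membrane protein gene Ms4a10 156 and Gm10142 221, each at the marked start. Gm13051 and Gm13138 on chromosome 4, which both carry a KZFP or related unit, had 858 and 639, the first at another start than the marked one. Fgf9, a growth factor gene of lung and gonad, had 152, also at another start. H3K9me3 was listed in Kap1 KO cells near a start of 2 of the 22 genes, beside 46 of all 592, or 7.77%. The median H3K27ac score of the 22 was 313, below the median of 576 of the whole Kap1 KO list. Genes with H3K27ac in WT only had a median of 566, also below the 686 of the whole WT list.

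Homeobox genes made up 5 of the 23 genes with H3K27ac in WT only and 2 of the 22 with it in Kap1 KO only. Among all 592 genes, 41 were homeobox genes, and 12 of these 41 had WT H3K27ac at any start. Whether 5 and 2 differ was not tested, and the list was drawn up after values were seen. The 2 were Hoxa13, with an H3K27ac score of 66.2, and Irx1, with 2657, each at a marked start. The genes with H3K27ac in WT only given here were picked after their values were seen. Nkx2-3, a homeobox gene of gut and spleen, had 3100 at its marked start, and the adrenergic receptor gene Adrb1 had 2365. Pou3f1, Foxb2 and Hoxc11 had 310.5, 78.1 and 431 at their marked starts. Lhx1 and Hoxd11 had 121 and 108 at another start. Of the 23 genes, 19 had the acetylation at the marked start, beside 82 of all 164 marked genes with WT H3K27ac. An H3K9me3 peak was listed near a start in Kap1 KO cells at 4 of the 23, beside 46 of all 592 genes. Of the 22 genes with H3K27ac in Kap1 KO only, 13 had it at the marked start, beside 74 of all 163 marked genes with Kap1 KO H3K27ac.

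In Hepa 1.6 cells, KAP1 peaks overlapped 209 of the 729 peaks, or 28.7% (25.4% to 32.1%). Over all autosomal WT H3K9me3 peaks the share was 14.5%, and away from promoters 13.7% (13.1% to 14.3%). KAP1 peaks were themselves frequent at promoters: 19.6% of all protein-coding genes had one within 1 kb of a start, beside 36.8% (32.9% to 40.9%) of the 592. The overlap was larger for stronger H3K9me3, with 75 of 147 peaks, or 51% (42.7% to 59.3%), at a score of at least 200 and 56 of 281, or 19.9% (15.4% to 25.1%), under 80. Away from promoters these shares were 28.5% and 8.96%.

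The SETDB1 list consists of KAP1 peaks with their KAP1 score. It accounted for 96 of the 209 peaks with KAP1, or 45.9% (39% to 52.9%), and for 31.5% (29.4% to 33.7%) of the 1855 with KAP1 elsewhere. Over all 729 the share was 13.2% (10.8% to 15.8%), beside 4.76% of all autosomal WT peaks. At the level of starts, 15.5% (12.7% to 18.7%) of the 592 genes and 1.87% of all genes had such a peak.

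KAP1 scores were high at these places. The 209 H3K9me3 peaks were overlapped by 181 different KAP1 peaks, since a KAP1 peak can span several of them. These 181 had a median score of 372, against 149 for the whole KAP1 list. A score of 3100 or more was held by 15 of them, among 211 in the list, and 6 of the 15 overlapped peaks at imprinted genes. KAP1 overlapped 13 of the 19 imprinted H3K9me3 peaks. Since the scores of the highest peaks were tied, the first 10 by position were Msc with Gm9947 and Spata3 on chromosome 1, Fcgr3 with 2 peaks, Mcts2, Nnat with Blcap at 3 peaks, Zfp316 and Mest. Msc encodes a repressor of muscle differentiation, and its H3K9me3 score was 150.4. Spata3, a testis gene, had an H3K9me3 score of 51.6, so that a high KAP1 score in Hepa 1.6 did not go with a high H3K9me3 score at every gene.

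Peaks with KAP1 in Hepa 1.6 were kept in Kap1 KO MEF in 10 of 209 cases, or 4.78% (2.32% to 8.62%), and those without in 33 of 520, or 6.35% (4.41% to 8.8%). Away from promoters the shares were 1.99% (1.41% to 2.74%) with KAP1 and 3.14% (2.83% to 3.47%) without, so that the intervals overlapped at promoters and were separate elsewhere. WT H3K27ac was listed at 58 of 185 genes with KAP1 over the H3K9me3 peak, or 31.4% (24.7% to 38.6%), and at 106 of 407 without, or 26% (21.8% to 30.6%). H3K27ac in Kap1 KO cells only was found at 8 of the 185 genes with KAP1 and at 14 of the 407 without. In WT only it was found at 10 and 13 of them. Over all 21418 genes these counts were 282 for Kap1 KO only and 573 for WT only. The groups differ in size, and whether they differ in these counts was not tested.

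The marked starts were rich in CpG. A start was called CpG-rich when 500 bp on each side had a GC content of at least 50% and an observed to expected CpG ratio of at least 0.6. This applied to 545 of 981 marked starts, or 55.6% (52.4% to 58.7%), and to 39.8% of all starts. Among starts under the peak it was 62.5% (57.9% to 67%). Of all marked starts whose peak had KAP1 in Hepa 1.6, 68.9% (63.5% to 74%) were CpG-rich, against 49.3% (45.5% to 53.2%) without KAP1. Starts of the same gene lie close together and are not independent.

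CpG-rich promoters are usually acetylated, and 89.3% of all CpG-rich starts had WT H3K27ac within 1 kb. Among marked CpG-rich starts 104 of 545 had it in WT, and 70, or 12.8%, in Kap1 KO cells, where 87.3% of all CpG-rich starts did. Marked starts that were not CpG-rich had it in 11.9% in WT and 16.1% in Kap1 KO cells, beside 26.6% and 25.3% of all such starts.

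Short motifs were searched on both strands from 250 bp before to 50 bp after each start. TGCCGC, the core bound by the imprinting factor ZFP57 when methylated, was found at 21.8% of marked starts and 14.2% of all starts. At starts whose peak had KAP1 the share was 32.7%, and without KAP1 16.7%. GGCGGGA, a motif of E2F6, was found at 17.9% of marked starts and 13.2% of all starts, with 25% where the peak had KAP1 and 14.6% where it did not. CACGTG, the E-box of MYC and USF factors, was found at 8.97% of marked and 7.3% of all starts. CpG-rich sequence holds more matches to motifs with CG, and the part of base composition in these shares was not tested.

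The sequences below are the 200 bases of mm9 that precede a marked start, in the direction of transcription. They are examples, chosen in part after their values were seen, and do not measure how base composition varies over the marked promoters. Shown are the highest-scoring genes of the germline, zinc finger and kept groups whose 200 bases lay inside the peak and outside any annotated exon. Zfp316 was also the highest by this rule among peaks with KAP1. Mest, Dazl, Lhx1 and Hoxa13 were added after their values had been seen. Capitals mark matches to the 3 motifs on either strand.
Mest, chr6:30687850-30688049, plus strand: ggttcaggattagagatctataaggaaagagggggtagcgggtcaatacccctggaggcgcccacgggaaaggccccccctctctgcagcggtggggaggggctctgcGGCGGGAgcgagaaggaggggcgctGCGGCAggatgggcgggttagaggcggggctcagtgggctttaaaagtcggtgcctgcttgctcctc
Gtsf1, chr15:103260902-103261101, minus strand: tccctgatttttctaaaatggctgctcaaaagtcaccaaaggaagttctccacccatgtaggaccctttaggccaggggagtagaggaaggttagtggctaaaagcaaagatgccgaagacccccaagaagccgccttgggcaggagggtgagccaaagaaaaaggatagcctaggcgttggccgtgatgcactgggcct
Dazl, chr17:50432218-50432417, minus strand: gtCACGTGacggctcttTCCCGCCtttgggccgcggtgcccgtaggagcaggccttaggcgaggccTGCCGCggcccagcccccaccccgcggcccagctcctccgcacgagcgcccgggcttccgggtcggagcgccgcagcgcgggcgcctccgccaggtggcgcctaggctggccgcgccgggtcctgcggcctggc
Zfp316, chr5:144017886-144018085, minus strand: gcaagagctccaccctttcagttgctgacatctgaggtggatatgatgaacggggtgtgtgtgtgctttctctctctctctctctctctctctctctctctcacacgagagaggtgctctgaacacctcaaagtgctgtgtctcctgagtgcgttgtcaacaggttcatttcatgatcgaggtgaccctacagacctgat
Muc19, chr15:91739674-91739873, plus strand: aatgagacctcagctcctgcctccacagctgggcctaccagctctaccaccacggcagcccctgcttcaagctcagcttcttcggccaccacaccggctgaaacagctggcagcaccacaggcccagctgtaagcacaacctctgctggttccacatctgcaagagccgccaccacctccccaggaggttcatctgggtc
Lhx1, chr11:84338924-84339123, minus strand: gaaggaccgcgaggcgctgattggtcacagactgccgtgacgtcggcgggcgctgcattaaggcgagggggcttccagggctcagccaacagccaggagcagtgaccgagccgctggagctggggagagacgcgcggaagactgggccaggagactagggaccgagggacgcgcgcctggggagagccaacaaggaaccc
Hoxa13, chr6:52210875-52211074, minus strand: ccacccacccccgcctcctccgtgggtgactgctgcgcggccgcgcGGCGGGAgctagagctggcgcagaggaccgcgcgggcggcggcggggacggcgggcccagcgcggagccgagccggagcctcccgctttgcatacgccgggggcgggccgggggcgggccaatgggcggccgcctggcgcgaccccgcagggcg

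Mest held 1 match each to TGCCGC and GGCGGGA in its 200 bases, and Dazl 1 match to each of the 3 motifs. Hoxa13 held 1 match to GGCGGGA, and Gtsf1, Zfp316, Muc19 and Lhx1 held 0 matches. CG dinucleotides numbered 33 upstream of Hoxa13, 28 of Dazl, 18 of Lhx1 and 12 of Mest. The starts shown for Gtsf1, Zfp316 and Muc19 had 4 each. The CpG ratio around these starts was 0.949 at Hoxa13, 0.856 at Lhx1, 0.823 at Dazl and 0.778 at Mest. It was 0.407 at Gtsf1, 0.279 at Muc19 and 0.165 at Zfp316. The starts shown for Mest, Dazl, Muc19 and Zfp316 lie inside the genes.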

How the data were processed

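Reads had been mapped to mm9 with Bowtie2 2.2.1 and peaks called with MACS 1.4 against total input, according to the submitters' notes and the methods. The authors deposited each peak with a score, used here to rank peaks within a list; scores of separate lists were set side by side without correction for depth. The methods state a cutoff of 80; the Hepa 1.6 lists began at 80 and the MEF lists at 50 to 50.03. All peaks were used. An absent peak means signal below the authors' threshold.

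Transcript starts came from GENCODE for mm9. Peaks overlapped when they shared 1 bp. Members and lists were chosen with earlier results of these data known, and the homeobox and the forkhead, Sox, T-box and GATA lists after values were seen. Named genes were those of the 10 highest peaks by WT score, among all members, among kept ones and among those with H3K27ac in Kap1 KO only, the 10 highest KAP1 scores, and all imprinted and germline members. Other genes were named after their values were seen. No test between genotypes was run. The genome was in capitals throughout chromosome 1, so repeat-masked shares were not computed. The sequence that the rule gave for the imprinted group is not reported here. Overlap counts were checked against bedtools 2.31.1 and were equal. Python 3.11.15, numpy 2.4.6, scipy 1.17.1 and pysam 0.24.0 were used.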

Additional observations from a re-analysis of the deposited data

How the results depend on the processing

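When the peak had to cover the start, 290 peaks at 293 genes were left, with a median score of 129.85, 9.66% kept, H3K27ac at 21.8% of genes in WT and 22.5% in Kap1 KO cells, 11 genes with it in Kap1 KO only, and KAP1 at 34.8%. A window of 2 kb gave H3K27ac at 32.4% and 31.6% of genes and KAP1 at 25%. Scores of at least 80 gave 448 peaks at 390 genes, a median of 142.37, 3.79% kept, 14 genes with H3K27ac in Kap1 KO only and KAP1 at 34.2%. With the most upstream start of each gene, H3K27ac was at 14% and 12% of genes and 14 genes had it in Kap1 KO only. With as many WT as Kap1 KO peaks, taken by score, 7.92% were kept. The top 50% of H3K27ac peaks gave 10 genes with Kap1 KO only. H3K27ac over the peak itself was at 7.27% and 6.72% of peaks. KAP1 within 1 kb gave 36.5%, and KAP1 peaks of the SETDB1 list 13.2%. In alternatives chosen after seeing the data, H3K27ac at marked starts gave 13.9% and 12.5%, and starts of protein-coding transcripts 22.4% and 21.8%. The cause of these shifts was not tested. No paired analysis was possible because each genotype had 1 library per mark. Depth is unknown, so the lists cannot separate lost signal from signal under the threshold.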

Other observations

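Genes outside the lists were also strongly marked at a start, named here after their values were seen. Vldlr, a lipoprotein receptor gene, had a WT H3K9me3 score of 795, Lrg1, a secreted glycoprotein gene, 785, and Ndrg4, a gene of heart and nervous system, 782. C1ql1, which encodes a synaptic organiser of cerebellar neurons, had 691, Unc45b, a myosin chaperone gene of muscle, 669, and Cdh23, a cadherin gene of the inner ear, 610.3. Of these, Ndrg4, C1ql1 and Cdh23 had a KAP1 peak in Hepa 1.6, with scores of 1115, 1459 and 1447. The tight junction gene Cldn7 had 402 for H3K9me3 and 2322 for KAP1, Klf15, a metabolic regulator gene, 558 and 1332, and the Polycomb gene Cbx7 373 and 1264. The peaks given for Unc45b, Cdh23 and Cbx7 lay at starts inside the gene. H3K27ac was listed at starts other than the marked ones at Ndrg4, Cdh23 and Cbx7. For WT and then Kap1 KO cells, its scores were 3100 and 1562 at Ndrg4, 208 and 79.4 at Cdh23, and 790 and 919 at Cbx7. Lrrc10b had 794 for H3K9me3 and 3100 for KAP1, and the same peak overlapped H3K27ac with a score of 57.3 in WT and 257 in Kap1 KO MEF.

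By symbol stem, solute carriers gave 8 members of 341, or 2.35%, and Gpr receptor genes 5 of 84, or 5.95%, beside 2.76% of all genes.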
